A study of Mus musculus with 18 samples.

Results

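The MHC class II antigen presentation genes described here are 8 of the 15572 genes counted by RNA-seq in mouse liver. They were picked by name, *Cd74*, *H2-Aa*, *H2-Ab1*, *H2-Eb1*, *H2-DMa*, *H2-DMb1*, *Ciita* and *Ctss*, and were chosen from the RNA-seq comparison of JMJD1C-LKO and WT livers given below, with its results known. Their levels in that comparison are therefore a description and carry no test, whereas summits of ATAC-seq and H3K9me2 ChIP-seq at their transcript starts and the letters of their promoters were not used to choose them. JMJD1C is a histone demethylase that acts on H3K9, and the RNA-seq asks how loss of the gene in the liver changed expression after a meal. All mice were c57bl/6j on chow for 6 to 8 weeks, and RNA-seq livers came from WT and from JMJD1C-LKO mice, refed a high carbohydrate diet after an overnight fast. In JMJD1C-LKO mice a floxed *Jmjd1c* allele, freed of its Neo cassette with an FLP deleter strain, is deleted by a Cre recombinase under the albumin promoter, which is active in hepatocytes. WT littermates were the controls. For ATAC-seq there were also livers of fasted WT mice beside refed mice of either genotype, and for H3K9me2 ChIP-seq only WT mice, fasted or refed. Each group had 2 samples. Pooled RNA went into each RNA-seq library, so the spread between 2 libraries is not that between single mice. The labels give 6 h of refeeding for every sample, fasted ones included, so the fasted state was read from the letter in the sample titles and the study's own description of the groups.

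MHC class II molecules carry peptides from engulfed proteins to the surface of antigen presenting cells, where CD4+ T cells read them. An alpha and a beta chain pair in the endoplasmic reticulum with the invariant chain, which fills the groove and guides the complex to endosomes. There proteases, among them cathepsin S, trim the invariant chain to a short peptide, and the DM dimer exchanges this peptide for one of foreign or self origin. The transactivator CIITA switches the whole set on by docking on an enhanceosome of RFX, CREB and NF-Y factors at the X and Y boxes of the promoters. In liver these genes are known from Kupffer cells, dendritic cells, B cells and sinusoidal endothelium, whereas resting hepatocytes hold little of them.

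The 4 RNA-seq libraries held between 51265128 and 54400509 estimated counts. *Jmjd1c* itself read 22.0 and 22.8 CPM (counts scaled to a common library size by the TMM method) in the WT libraries and 20.04 and 20.48 CPM in the JMJD1C-LKO libraries. The log2 fold change of −0.14 ± 0.08 (SE) did not pass the test (edgeR quasi-likelihood, adjusted p = 0.233). Because the gene total does not resolve the floxed exons and is not clearly lower, the libraries are called LKO-labelled below, and every direction rests on that label. Of 14151 genes tested, 14.6% were called higher and 13.4% lower in the LKO-labelled libraries at an adjusted p below 0.05. In 33.7% of them both LKO-labelled libraries lay above both WT libraries and in 33.8% both lay below.

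All 8 class II genes passed the expression filter, all 8 were among the genes called higher, and in all 8 the groups did not overlap. Their median log2 fold change was 2.57 against 0.01 over all genes tested, and these figures restate how the genes were picked. Within the set the genes fell apart by role. The 3 classical chains and the invariant chain were 8.04- to 9.79-fold higher by group means, and the DM genes, *Ciita* and *Ctss* 2.88- to 4.36-fold higher.

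**Figure D1:**
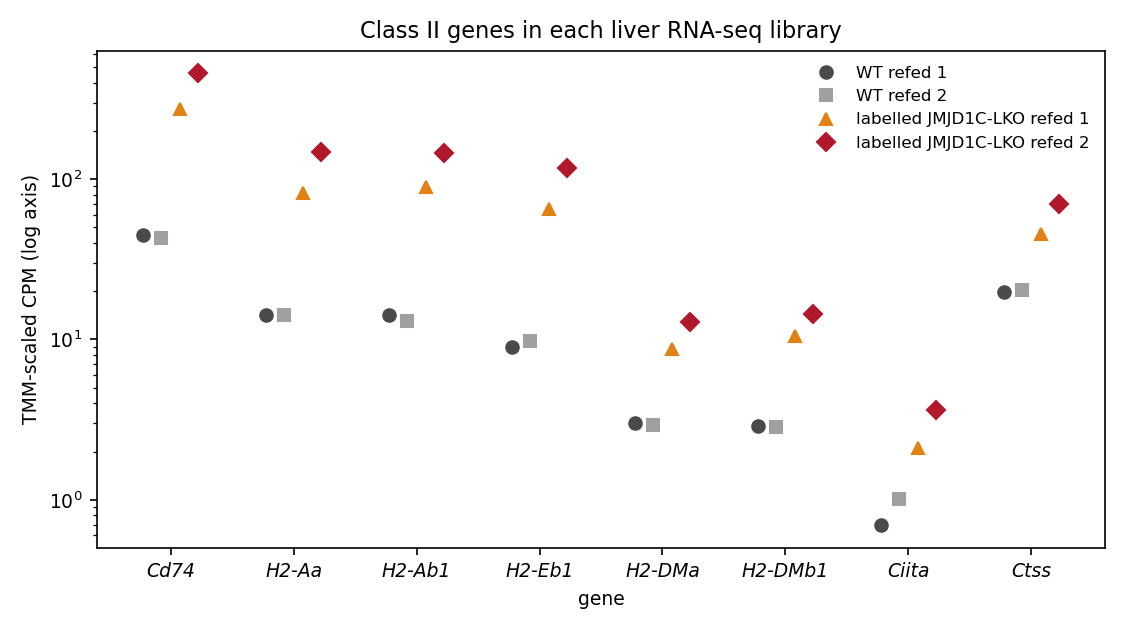
Level of each of the 8 class II genes in the 4 liver RNA-seq libraries, in TMM-scaled CPM on a log axis, with 1 symbol for each library. Both LKO-labelled libraries lie above both WT libraries for every gene, and LKO-labelled library 2 lies above library 1 for every gene.

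*H2-Ab1* encodes the beta chain of I-A, the main class II molecule of this strain. It read 14.2 and 13.1 CPM in the WT libraries and 89.1 and 145 CPM in the LKO-labelled libraries. Even the lower LKO-labelled library lay 6.28-fold above the higher WT library, and the log2 fold change was 3.10 ± 0.20. *H2-Aa*, which encodes the alpha partner, moved with it. Its levels were 14.3 and 14.1 CPM in WT and 81.5 and 147 CPM in the LKO-labelled libraries, a log2 fold change of 3.01 ± 0.23. *H2-Eb1* encodes the beta chain of I-E, whose alpha chain is defective in C57BL/6 mice, so that the protein is known not to reach the surface in this strain. At the RNA level it had the highest fold change of the 8 genes. It read 8.93 and 9.72 CPM in WT and 65.2 and 117 CPM in the LKO-labelled libraries, a log2 fold change of 3.29 ± 0.24, which ranked 27 of the 14151 genes tested. The alpha chain gene was not found in the deposited counts under the names *H2-Ea* and *H2-Ea-ps*. The standard errors of the 3 chains overlap, so no order among them can be given.

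The promoters of these genes are where class II transcription is controlled, and a few are shown, with or without the boxes that CIITA's partners read. RefSeq promoter windows of GRCm38.p6, from 250 bases before to 50 bases after a start, were found for 5 of the 8 genes, namely *H2-Aa*, *H2-Eb1*, *H2-DMa*, *H2-DMb1* and *Ctss*, and not for *Cd74*, *H2-Ab1* and *Ciita*. The letters ATTGG (the core of the Y box, the site of NF-Y) and ACNGATG (a core of the X box) were searched on both strands, and a pair was counted when ATTGG began 10 to 35 bases after the end of ACNGATG on the same strand. The pair was found in *H2-Eb1* and *H2-DMb1*, 2 of the 5 genes, and in *H2-DMb2* and *H2-Eb2* but not *H2-Oa* and *H2-Ob* among 4 other class II genes, against 0.195% of all 32851 windows. The boxes searched are those known from class II promoters, so matches in these genes are no test. *H2-DMb2* is also a near copy of *H2-DMb1*, so the matches of this pair do not count separately. ATTGG alone was in 37.4% and ACNGATG alone in 9.85% of all windows. In the sequences the last 160 bases before the start are given 5′ to 3′ on the strand of the gene, with ATTGG (or CCAAT, the same letters on the other strand) and ACNGATG in capitals.
H2-Eb1 (chr17:34305707-34305866, + strand): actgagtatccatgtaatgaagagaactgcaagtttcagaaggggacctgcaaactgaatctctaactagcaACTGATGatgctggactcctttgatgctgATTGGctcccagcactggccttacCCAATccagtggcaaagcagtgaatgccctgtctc
H2-DMb1 (chr17:34153031-34153190, + strand): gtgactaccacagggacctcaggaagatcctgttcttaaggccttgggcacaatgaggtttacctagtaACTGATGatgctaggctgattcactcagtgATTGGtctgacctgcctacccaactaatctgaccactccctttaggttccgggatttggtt
H2-DMb2 (chr17:34145089-34145248, + strand): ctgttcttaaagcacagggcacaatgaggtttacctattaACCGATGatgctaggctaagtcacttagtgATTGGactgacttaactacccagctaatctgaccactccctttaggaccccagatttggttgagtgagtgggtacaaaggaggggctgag
H2-Aa (chr17:34287824-34287983, − strand): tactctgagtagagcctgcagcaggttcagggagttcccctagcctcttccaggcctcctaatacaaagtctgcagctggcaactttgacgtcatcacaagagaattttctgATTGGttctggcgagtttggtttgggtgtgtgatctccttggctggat
H2-DMa (chr17:34122672-34122831, + strand): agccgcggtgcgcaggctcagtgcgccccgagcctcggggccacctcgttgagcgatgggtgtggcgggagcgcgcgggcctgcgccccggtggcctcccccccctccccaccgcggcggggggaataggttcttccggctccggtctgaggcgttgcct

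In *H2-Eb1* and *H2-DMb1* the boxes sit at nearly the same place. ACNGATG begins 88 and 91 bases before the start and is followed after 22 and 23 bases by ATTGG. *H2-Aa* has ATTGG but no ACNGATG in the shown stretch, and its full window holds ACNGATG elsewhere without making the pair. The window of the upstream *H2-DMa* start is of another kind. It holds 73% G and C and 29 CpG pairs, against medians of 52.7% and 7 over all windows, and neither motif. The window of the downstream *H2-DMa* start (chr17:34125268-34125567) holds 39% G and C, 0 CpG pairs, 1 ATTGG and 0 ACNGATG. The G and C content of the windows of *H2-Eb1*, *H2-DMb1*, *H2-Aa* and *Ctss* lay between 44% and 50.7%. A motif match is a description of letters, a box spelled otherwise is missed by this search, and no binding was measured at these sites.

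*H2-DMa* and *H2-DMb1* encode the DM dimer, the peptide editor of the endosome. *H2-DMa* read 3.03 and 2.91 CPM in WT and 8.70 and 12.8 CPM in the LKO-labelled libraries, a log2 fold change of 1.86 ± 0.20. *H2-DMb1* read 2.87 and 2.86 CPM in WT and 10.5 and 14.5 CPM in the LKO-labelled libraries, a log2 fold change of 2.13 ± 0.18. The groups of both genes were apart, and both fold changes were smaller than those of the classical chains by more than their standard errors. *H2-DMb2* is a near copy of *H2-DMb1* that shares the promoter boxes printed above, and part of the counts of *H2-DMb1* are fractional, so reads of this pair may have been split between them. *H2-DMb2* read between 0.10 and 0.36 CPM in all 4 libraries and did not pass the test (log2 fold change 0.90 ± 0.58, adjusted p = 0.272).

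*Cd74* encodes the invariant chain and lies on chromosome 18 (chr18:60803849-60812652, + strand), away from the class II region. It was the most abundant of the 8 genes in every library. Its level was 45.1 and 43.0 CPM in WT and 273 and 457 CPM in the LKO-labelled libraries, with a log2 fold change of 3.05 ± 0.20. Of its 2 RefSeq transcripts, the longer one, with a coding length of 840 bases against 648, took 16.1% and 24.1% of the gene's counts in WT and 23.2% and 26.9% in the LKO-labelled libraries. These shares differed as much between the WT libraries as between the groups.

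*Ciita*, on chromosome 16 (chr16:10480072-10527640, + strand), encodes the transactivator of the whole set. It was the scarcest of the 8 genes, with 36 and 53 counts in WT and 104 and 199 counts in the LKO-labelled libraries. Scaled to CPM these were 0.694, 1.02, 2.105 and 3.61, a log2 fold change of 1.74 ± 0.33. Its standard error was the widest of the set, and without WT library 1 the gene was no longer called at a log2 fold change of 1.49. *Ciita* has 3 starts in RefSeq, which belong to promoters used in different cell types. In the deposited counts 4 of its 5 transcripts kept a fixed ratio to each other in every library, to within 0.00139%, so the use of its starts could not be read from these values.

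*Ctss*, on chromosome 3 (chr3:95526786-95556405, + strand), encodes cathepsin S, the protease that takes the last steps of invariant chain removal. It had the smallest fold change of the 8 genes. It read 19.7 and 20.4 CPM in WT and 45.2 and 70.3 CPM in the LKO-labelled libraries, a log2 fold change of 1.53 ± 0.17, which ranked 338 of 14151. The groups were apart, with the lower LKO-labelled library 2.22-fold above the higher WT library. Its 2 transcripts also kept a fixed ratio in all libraries and were not told apart.

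The 2 LKO-labelled libraries differed from each other in a like way for all 8 genes. Library 2 exceeded library 1 by 1.38- to 1.80-fold, with a median of 1.65-fold, against a median ratio of 1.002 over all genes tested. Of all genes tested 10.9% had a ratio of 1.38 or more. The WT libraries lay close together, with ratios of library 2 to library 1 from 0.921 to 1.09 for 7 genes and 1.46 for *Ciita*. Summed over the 8 genes, the level was 109 and 107 CPM in WT and 575 and 967 CPM in the LKO-labelled libraries. The size of every fold change given here thus depends on which LKO-labelled library is read. With only library 1 the median log2 fold change was 2.20, and with only library 2 it was 2.85.

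To compare levels between genes, counts were divided by transcript length. Per kilobase, the order in WT was *Cd74* (35.01 ± 1.46 CPM per kb, SD, n = 2), *Ctss* (14.8 ± 0.356), *H2-Aa* (12.6 ± 0.0911), *H2-Ab1* (11.4 ± 0.665), *H2-Eb1* (5.59 ± 0.334), *H2-DMb1* (2.23 ± 0.00214), *H2-DMa* (1.79 ± 0.0488) and *Ciita* (0.162 ± 0.0408), and no SD of neighbours overlapped. In the LKO-labelled libraries *Cd74* stayed first, at 288 ± 102 CPM per kb. *Ctss* stood below the 3 chains there, at 42.5 ± 13.1 CPM per kb against 54.7 ± 22.1 for *H2-Eb1*, 98.1 ± 33.2 for *H2-Ab1* and 101 ± 40.9 for *H2-Aa*, and within this group of 4 the values of neighbours overlap. Proportions between the genes were also read per kb. The ratio of *H2-Aa* to *H2-Ab1* per kb was 1.07 and 1.15 in WT and 0.968 and 1.07 in the LKO-labelled libraries. *Cd74* stood 3.03- and 3.11-fold above *H2-Ab1* in WT and 2.90- and 2.96-fold in the LKO-labelled libraries. Between the DM partners, the ratio of *H2-DMa* to *H2-DMb1* was 0.818 and 0.789 in WT and 0.641 and 0.685 in the LKO-labelled libraries. The ratio of *H2-DMa* to *H2-Ab1* was 0.154 and 0.161 in WT and 0.0703 and 0.0635 in the LKO-labelled libraries. The groups did not overlap in these last 3 ratios, all lower in the LKO-labelled libraries, and the difference was smallest for *Cd74*. In the ratio of *H2-Eb1* to *H2-Ab1* the groups overlapped, at 0.450 and 0.532 in WT and 0.523 and 0.578 in the LKO-labelled libraries. Among all genes tested the groups were apart in 33.7% upward and in 33.8% downward. The ratios restate fold changes of genes chosen with this comparison known, and they were not tested.

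Of the 8 genes 5 lie in the class II region of chromosome 17, where they stand among genes of other functions. By RefSeq (GRCm38.p6, the mm10 build) *H2-DMa* spans chr17:34122832-34139101, *H2-DMb1* chr17:34153191-34160229, *H2-Ab1* chr17:34263227-34269418 and *H2-Eb1* chr17:34305867-34316674 on the + strand, and *H2-Aa* chr17:34282744-34287823 on the − strand. From *H2-Oa* to *H2-Eb2* (chr17:34092379-34341410, as the deposited table gives it) the table holds 14 genes. Outside the set 8 of these were tested, with a median log2 fold change of 0.68. Of them 4 were higher and none was lower, against 14.6% and 13.4% of all genes tested. The 4 are the class I processing genes that lie between the DM and the classical chains. *Psmb9* and *Psmb8*, subunits of the immunoproteasome, had log2 fold changes of 1.24 ± 0.15 (adjusted p = 0.000593) and 0.68 ± 0.11 (adjusted p = 0.00185). *Tap1* and *Tap2*, the peptide transporter, had 1.07 ± 0.13 (adjusted p = 0.000524) and 0.33 ± 0.09 (adjusted p = 0.0217). *Brd2*, a bromodomain gene next to *H2-DMa*, read between 94.4 and 104 CPM in all 4 libraries and did not pass the test (adjusted p = 0.591). Each of these 5 genes had a smaller log2 fold change than any of the 5 genes of the set in the region. That order restates how the set was chosen.

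**Figure D2:**
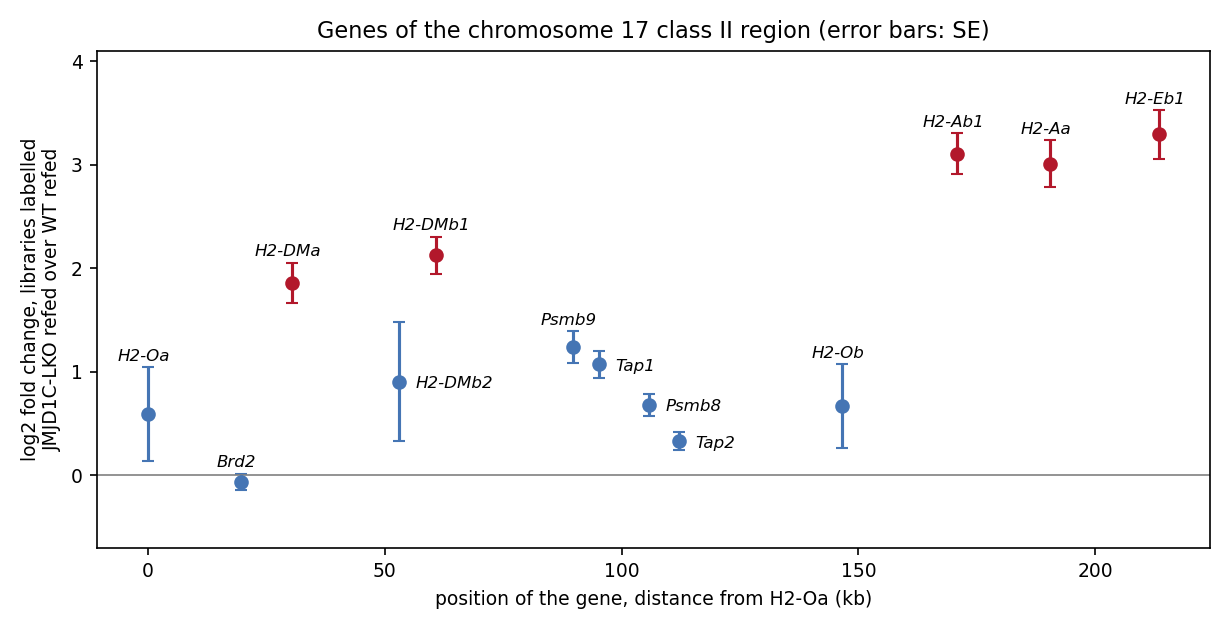
Log2 fold change of the 13 tested genes of the chromosome 17 class II region, LKO-labelled over WT libraries, against the position of each gene as the distance in kb of its lower coordinate from that of *H2-Oa*, with bars for the standard error. The 5 genes of the set (red), chosen with these values known, lie between 1.86 and 3.29, and the others (blue) between −0.06 and 1.24.

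Outside the set, the genes with the most similar profile over the 4 libraries were sought among 10883 genes with a mean log2 CPM of at least 1. Likeness was the root-mean-square difference of centred log2 CPM from the mean profile of the 8 genes, so only 4 libraries enter it. The nearest were *Gpcpd1*, *Btg2*, *Gadd45g*, *Got1* and *Sla*, with differences of 0.0466, 0.0823, 0.121, 0.122 and 0.146. The 8 genes themselves lay between 0.181 (*H2-DMb1*) and 0.461 (*Ctss*) from their own mean. The nearest genes were picked as the smallest differences of 10883, so their lying closer follows from the search. *Gpcpd1*, a glycerophosphodiesterase, read 26.2, 25.9, 108 and 166 CPM in WT 1 and 2 and LKO-labelled 1 and 2. *Got1*, the cytosolic aspartate aminotransferase of hepatocytes, read 76.2, 72.0, 365 and 581 CPM. *Sla*, an adaptor of blood cells, read 1.47, 1.65, 6.27 and 8.47 CPM. A profile that is low in WT and highest in LKO-labelled library 2 was thus also that of genes outside the class II pathway, *Got1* of hepatocytes among them.

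The rest of the class II pathway was read from 5 lists. Together 61 of their 69 entries were tested, of which 22 were higher and 7 lower, with a median log2 fold change of 0.25. Leaving out WT library 1 gave 9 higher and 4 lower, and leaving out WT library 2 gave 10 and 3. The lists were written with earlier results of these data known, so the counts describe them and single nothing out. Over all genes tested 14.6% were called higher and 13.4% lower. Counts of every list below are to be read beside these shares.

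Other class II chains and loading proteins did not pass the test. Of this list *H2-DMb2*, *H2-Oa* and *H2-Ob* were tested with edgeR, and 0 of the 3 had an adjusted p below 0.05, 0 an unadjusted p below 0.05, and 0 were called by DESeq2. *H2-Oa* and *H2-Ob* encode the DO dimer, which restrains DM and is known mainly from B cells. *H2-Oa* held 18 and 14 counts in WT and 18 and 31 in the LKO-labelled libraries, with a log2 fold change of 0.59 ± 0.45 (adjusted p = 0.361). *H2-Ob* read 0.83 and 0.44 CPM in WT and 1.23 and 0.80 CPM in the LKO-labelled libraries (log2 fold change 0.67 ± 0.41, adjusted p = 0.246). At this depth a change of the size seen in *H2-DMa* would lie outside 2 standard errors of *H2-Oa* and *H2-Ob*. For *H2-DMb2* (0.90 ± 0.58) it would lie inside them, so a like change of that gene cannot be told from none. The standard error of *H2-DMa* itself is left out of this comparison. *H2-Eb2* stayed below the filter with 2, 1, 7 and 5 counts.

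Of the factors that build the class II enhanceosome and its cofactors, 12 were tested, 1 was higher and 3 were lower, with a median log2 fold change of −0.20. With 14.6% of all genes tested higher and 13.4% lower, counts this small do not set the list apart. *Rfx5*, the DNA-binding subunit of RFX, read 16.1 and 16.8 CPM in WT and 8.74 and 8.47 CPM in the LKO-labelled libraries, and it fell by 0.93 on the log2 scale (SE 0.10, adjusted p = 0.000339). *Nfyb*, a subunit of NF-Y, fell by 0.61 (SE 0.12, adjusted p = 0.00546) and *Carm1*, an arginine methyltransferase, by 0.36 (SE 0.11, adjusted p = 0.0373). *Rfxank*, another subunit of RFX, rose by 0.45 ± 0.11 (adjusted p = 0.0161). With WT library 1 left out this list had 0 genes higher and 1 lower, and with WT library 2 left out 0 and 2. The most abundant transcript of each gene gave 0 higher and 1 lower.

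Of 15 tested genes of endosomal processing, 5 were higher and 2 lower, with a median log2 fold change of 0.16. *Ctsl*, cathepsin L, read 610 and 644 CPM in WT and 972 and 1093 CPM in the LKO-labelled libraries (log2 fold change 0.72 ± 0.09, adjusted p = 0.000646). *Ifi30*, the lysosomal thiol reductase GILT, rose by 0.80 ± 0.11 (adjusted p = 0.00118) and *Lgmn*, asparaginyl endopeptidase, by 0.78 ± 0.12 (adjusted p = 0.00184). *Cd63*, a tetraspanin of late endosomes, fell by 0.95 (SE 0.12, adjusted p = 0.000583), and *Sppl2a*, the protease that clears the membrane stub of the invariant chain, fell by 0.43 (SE 0.09, adjusted p = 0.00653). Cathepsins B, H, Z and C did not pass the test, with log2 fold changes between −0.06 and 0.16. In fits without WT library 1 or WT library 2, 3 genes of this list were higher, and without WT library 2 only 1 was lower.

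Of 11 tested genes for class II traffic, costimulation and partners of the invariant chain, 8 were higher and 1 lower, with a median log2 fold change of 1.17. *Cd86*, a costimulatory ligand, read 2.51 and 2.26 CPM in WT and 5.34 and 7.66 CPM in the LKO-labelled libraries (log2 fold change 1.45 ± 0.21, adjusted p = 0.00133). *Cd83*, a marker of maturing antigen presenting cells, rose by 1.72 ± 0.24 (adjusted p = 0.00119), and *March1*, the ligase that sends class II molecules to degradation, by 1.17 ± 0.22 (adjusted p = 0.00469). The receptor of the cytokine MIF is formed by the invariant chain and *Cd44*. *Cd44* read 6.89 and 6.83 CPM in WT and 16.1 and 24.4 CPM in the LKO-labelled libraries (log2 fold change 1.56 ± 0.18, adjusted p = 0.00036). Of its ligands *Ddt* rose by 0.38 ± 0.08 (adjusted p = 0.0073) and *Mif* fell by 0.30 (SE 0.08, adjusted p = 0.0188), the latter named after its value was seen. The list had 3 genes higher and 0 lower without WT library 1 or WT library 2.

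Interferon-gamma is the known inducer of *Ciita* outside professional antigen presenting cells, and 20 genes of its pathway were tested. Of these 8 were higher, 1 was lower, and the median log2 fold change was 0.23. *Cxcl9*, a chemokine of the response, read 6.73 and 7.29 CPM in WT and 14.7 and 16.5 CPM in the LKO-labelled libraries (log2 fold change 1.15 ± 0.12, adjusted p = 0.000238). *Irf8*, a factor of myeloid cells, rose by 1.17 ± 0.18 (adjusted p = 0.00181), and the guanylate-binding proteins *Gbp2* and *Gbp3* by 1.01 ± 0.19 (adjusted p = 0.00495) and 1.005 ± 0.18 (adjusted p = 0.00402). *Igtp*, an immunity-related GTPase, fell by 0.45 (SE 0.08, adjusted p = 0.00331). *Irf1*, a transcription factor of the response, did not pass the test (log2 fold change −0.15 ± 0.08, adjusted p = 0.189). *Ifng* itself stayed below the filter with 0 and 2 counts in WT and 5 and 5 in the LKO-labelled libraries. There were 3 genes higher without WT library 1, and 4 higher and 0 lower without WT library 2.

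The class I pathway, which presents peptides from inside the cell, had 13 of 20 genes higher and 3 lower, with a median log2 fold change of 0.47. *Nlrc5*, the transactivator of class I genes and so the counterpart of *Ciita*, read 17.6 and 18.0 CPM in WT and 31.0 and 37.0 CPM in the LKO-labelled libraries (log2 fold change 0.93 ± 0.10, adjusted p = 0.000312). *H2-Q7* and *H2-T23*, nonclassical class I heavy chains, rose by 1.04 ± 0.13 (adjusted p = 0.000707) and 0.58 ± 0.08 (adjusted p = 0.00117), although near-identical copies make counts of this family uncertain. The largest log2 fold change of the class I list, 1.24, was smaller than the smallest of the 8 class II genes, 1.53. The 8 genes were chosen with this comparison known, so this order restates that choice. The tested class II chains and loading proteins outside the set had log2 fold changes between 0.59 and 0.90. In fits without WT library 1 or WT library 2 there were 9 genes higher and 1 lower.

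**Figure D3:**
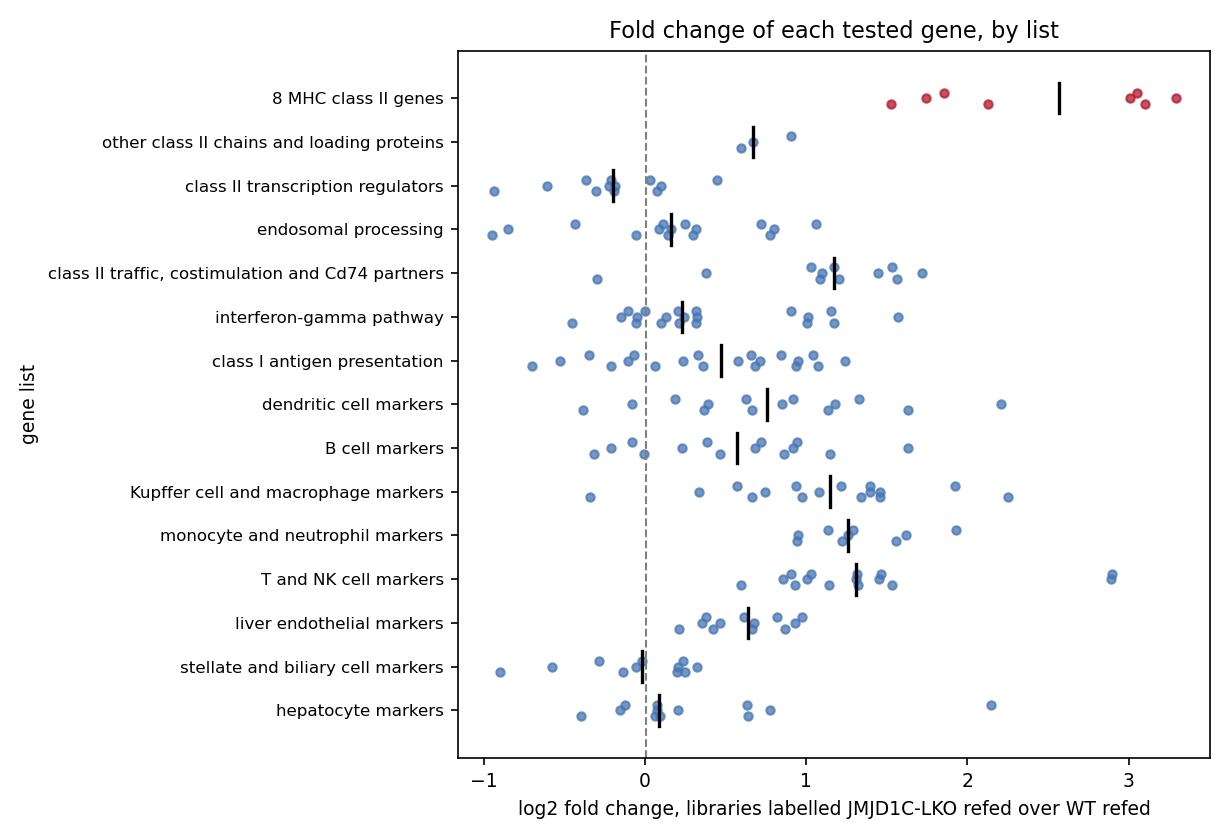
Log2 fold change of each tested gene, LKO-labelled over WT libraries, in 15 gene lists, with 1 point for each gene, a black bar at the median of each list and a dashed line at the median of all genes tested. The 8 class II genes (red), chosen with these values known, lie between 1.53 and 3.29. The medians of the other lists lie between −0.20 and 1.31.

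In whole liver, more cells of a type and more RNA per cell cannot be told apart, so markers of the cells that could hold class II RNA were read beside the set. Kupffer cell and macrophage markers moved most widely, with 15 of 16 higher and 1 lower. *Adgre1*, which encodes F4/80, rose by 2.25 ± 0.24 (adjusted p = 0.000313), and *Cd5l*, *Marco* and *C1qb* by 1.46 ± 0.15, 1.46 ± 0.15 and 1.21 ± 0.13 (adjusted p = 0.000282, 0.000229 and 0.000344). *Clec4f*, the lectin that defines Kupffer cells, read 83.8 and 84.4 CPM in WT and 140 and 191 CPM in the LKO-labelled libraries (log2 fold change 0.97 ± 0.13, adjusted p = 0.000849). *Slc40a1*, the iron exporter and the most abundant gene of the list, fell by 0.34 (SE 0.09, adjusted p = 0.0175). The summed level of the list was 597 and 626 CPM in WT and 1006 and 1372 CPM in the LKO-labelled libraries, and without WT library 1 or WT library 2 the count was 12 higher and *Slc40a1* was no longer called.

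Dendritic cell markers had 5 of 14 genes higher and 0 lower. *Clec9a*, a receptor of cross-presenting dendritic cells, read 2.91 and 2.76 CPM in WT and 5.42 and 7.004 CPM in the LKO-labelled libraries (log2 fold change 1.13 ± 0.18, adjusted p = 0.00231). *Wdfy4*, needed for cross-presentation, rose by 1.18 ± 0.25 (adjusted p = 0.008), *Itgax* by 1.63 ± 0.40 (adjusted p = 0.0153), *Flt3* by 2.21 ± 0.53 (adjusted p = 0.0139) and *Ccr7* by 1.33 ± 0.43 (adjusted p = 0.043). The summed level, 98.8 and 98.6 CPM in WT and 99.6 and 112 CPM in the LKO-labelled libraries, was mostly *Bst2*, which is not particular to dendritic cells and did not pass the test (adjusted p = 0.465). Without *Bst2*, left out after its values were seen, the sums were 14.1 and 14.8 CPM in WT and 22.1 and 30.2 CPM in the LKO-labelled libraries. Without WT library 1 there were 3 genes higher, and without WT library 2 or LKO-labelled library 2, or with only the most abundant transcript of each gene, there were 2.

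B cell markers were scarce, with 3 of 14 genes higher and 0 lower. Their summed level was 10.8 and 9.47 CPM in WT and 14.5 and 17.7 CPM in the LKO-labelled libraries. *Cd22*, *Cd37* and *Bank1* rose by 0.92 ± 0.24, 0.86 ± 0.24 and 0.68 ± 0.21 (adjusted p = 0.0183, 0.0251 and 0.0384). None of the list was called higher without WT library 1, WT library 2 or LKO-labelled library 2, or with only the most abundant transcript of each gene. Monocyte and neutrophil markers had 6 of 9 genes higher and 0 lower, among them *Csf3r* (1.62 ± 0.20, adjusted p = 0.000614), *Lyz2* (0.95 ± 0.13, adjusted p = 0.00101), *Plac8* (1.29 ± 0.19, adjusted p = 0.00137), *Ly6c2* (1.93 ± 0.41, adjusted p = 0.00831) and *Ccr2* (1.56 ± 0.39, adjusted p = 0.0155). Their summed level went from 28.4 and 32.1 CPM to 54.9 and 72.6 CPM, and 3 genes were higher without WT library 1.

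T and NK cell markers, of cells that in mice express little class II, had 8 of 15 genes higher and 0 lower. *Gzma*, a granule protease, read 0.29 and 0.21 CPM in WT and 1.32 and 2.43 CPM in the LKO-labelled libraries (log2 fold change 2.90 ± 0.42, adjusted p = 0.00132). *Klrb1c*, *Nkg7*, *Lck* and *Prf1* rose by 1.53 ± 0.30, 1.47 ± 0.32, 1.45 ± 0.33 and 2.89 ± 0.69 (adjusted p = 0.00546, 0.00849, 0.0115 and 0.0131). The summed level was 7.29 and 7.84 CPM in WT and 16.3 and 21.8 CPM in the LKO-labelled libraries. Without WT library 1 or WT library 2 there were 2 genes higher, and without LKO-labelled library 2 there were 5. DESeq2 called 5 higher, and the most abundant transcript of each gene gave 3.

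Liver endothelial markers had 9 of 12 genes higher and 0 lower, at smaller log2 fold changes, with a median of 0.64. The scavenger receptors *Stab2*, *Stab1* and *Mrc1* of the sinusoids rose by 0.82 ± 0.13, 0.61 ± 0.13 and 0.87 ± 0.15 (adjusted p = 0.00188, 0.00806 and 0.00327), and *Oit3*, *Pecam1* and *Cdh5* by 0.97 ± 0.18, 0.93 ± 0.19 and 0.67 ± 0.14 (adjusted p = 0.00402, 0.00627 and 0.00783). Their summed level was 204 and 198 CPM in WT and 266 and 361 CPM in the LKO-labelled libraries. Without WT library 1 there were 5 genes higher and without WT library 2 there were 3. Of stellate and biliary cell markers 0 of 11 were called by edgeR and 0 by DESeq2, while 5 had an unadjusted p below 0.05. Without LKO-labelled library 1 there were 3 higher and 1 lower, and without LKO-labelled library 2 there were 0 and 1, while the replicate block and the most abundant transcript each gave 1 higher. Hepatocyte markers had 4 of 12 genes higher and 1 lower, *Fabp1*, which was not called without WT library 1 or WT library 2. *Alb* and *Apoa1* did not pass the test, and *Tat*, tyrosine aminotransferase, read 592 and 516 CPM in WT and 1992 and 2908 CPM in the LKO-labelled libraries (log2 fold change 2.15 ± 0.16, adjusted p = 0.0000567).

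Set against these lists, the summed level of the 8 class II genes was 7.15-fold higher by group means, compared with 1.94-fold for Kupffer cell and macrophage markers, 2.52-fold for T and NK cell, 2.11-fold for monocyte and neutrophil, 1.59-fold for B cell, 1.56-fold for endothelial and 1.07-fold for dendritic cell markers. Without the most abundant gene of each list, an option added after the values were seen, the class II sum was 6.36-fold higher (without *Cd74*), and T and NK cell markers were 2.48-fold, monocyte and neutrophil 2.60-fold, Kupffer cell and macrophage 2.36-fold, dendritic cell 1.81-fold, B cell 1.58-fold and endothelial markers 1.57-fold higher. The ratio of the class II sum to the Kupffer cell and macrophage sum was 0.182 and 0.171 in WT and 0.572 and 0.705 in the LKO-labelled libraries. Among the markers present in the deposited counts none was at 0 in a library, while *F13a1*, *Ly6g* and *Trac* were absent from them. LKO-labelled library 2 lay above library 1 in the median of the Kupffer cell (1.45-fold), monocyte (1.35-fold), T and NK cell (1.33-fold), dendritic cell (1.33-fold) and endothelial lists (1.34-fold) as it did for the class II genes. The same held for the B cell (1.29-fold) and the stellate and biliary lists (1.15-fold). For hepatocyte markers the median lay below (0.942). The 8 genes were chosen with this comparison known, so their larger sum and ratio restate that choice. Sums also hide single markers, whose largest log2 fold change was 2.90, in the T and NK cell list. The part of the listed cell types in the class II levels was not tested.

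**Figure D4:**
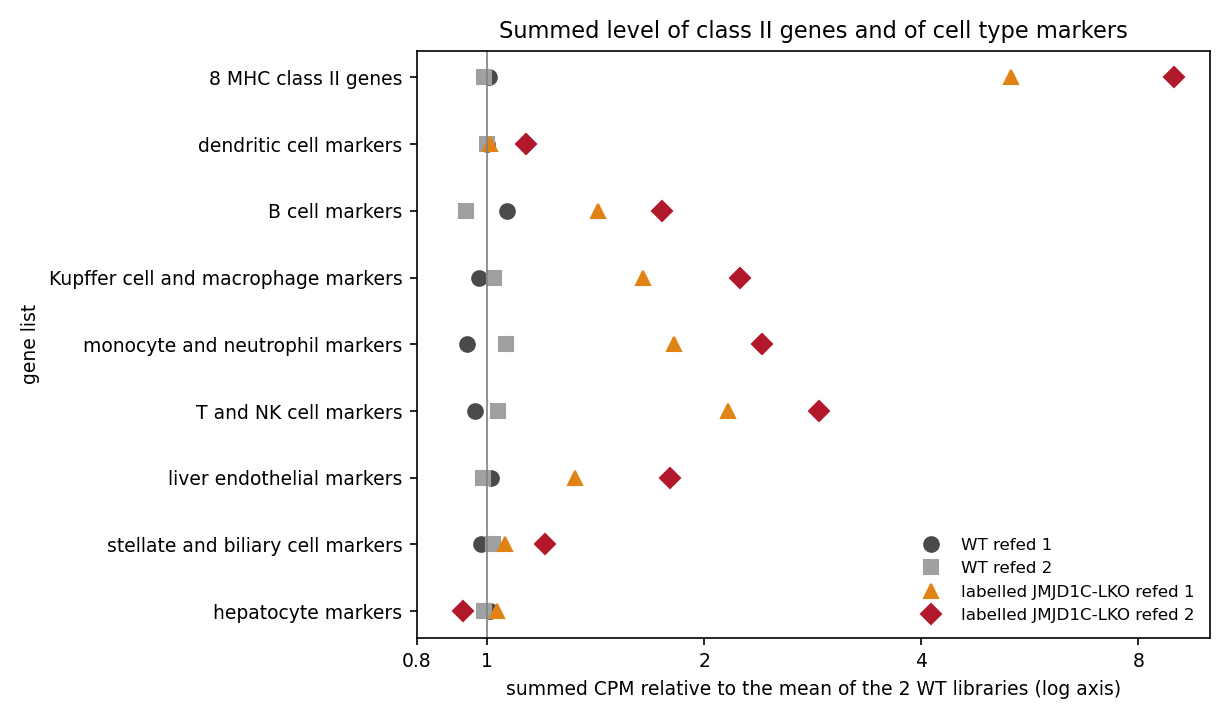
Summed CPM of the 8 class II genes and of 8 lists of cell type markers in each RNA-seq library, relative to the mean of the 2 WT libraries, on a log axis, with 1 symbol for each library. In the LKO-labelled libraries the class II sum is 7.15-fold the WT mean on average, and the marker lists are on average at 2.52-fold or less. The 8 genes were chosen with this comparison known.

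ATAC-seq marks accessible DNA, and H3K9me2 is the histone mark that JMJD1C removes. Both were read as the summits of peaks called by the authors in single samples, with a summit placed at a gene when it lay within 1000 bp of a RefSeq start. The samples differed greatly in the number of summits, from 825 to 7632 for ATAC-seq and from 1297 to 13456 for H3K9me2, and the depth of each is unknown from the lists. A missing summit is therefore not a sign of closed or unmarked DNA.

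Of the 8 class II genes only *H2-DMa* had an ATAC-seq summit at a start, in 1 of the WT refed samples (WT refed 1) and 1 of the knockout samples (JMJD1C-LKO refed 1). That is 1 of 8 genes where 9.94% and 4.06% of 26180 annotated genes had one. In WT fasted 1 and 2, WT refed 2 and JMJD1C-LKO refed 2 none of the 8 had a summit, against 12%, 5.49%, 6.24% and 0.886% of all genes. For the other 7 genes the nearest ATAC-seq summit of any sample was 17705 bp from a start. In both refed groups the *H2-DMa* summit was in 1 replicate and missing from the other, and an exact permutation test of 2 against 2 samples cannot go below p = 0.333.

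In the H3K9me2 lists, too, only *H2-DMa* had a summit at a start, in WT fasted 1 and WT refed 2, where 29.3% and 35.1% of all genes had one. In WT fasted 2 it was 0 of 8 genes against 42.7% of all genes. H3K9me2 WT refed 1 stood apart, since only 0.233% of all genes had a summit there, and it says little about any gene. For the other 7 genes the nearest H3K9me2 summit was 28890 bp from a start, upstream of *Cd74*. In the same WT fasted 1, WT fasted 2 and WT refed 2 samples 12 of the 12 listed enhanceosome factors and cofactors, such as *Rfx5*, *Nfya* and *Crebbp*, had a summit at a start, and none of the other class II chains had one.

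The *H2-DMa* summits lay in a stretch shared with another gene. *Brd2* is transcribed the other way from a start only 225 bp away (chr17:34122607-34122607 against chr17:34122832-34122832 for *H2-DMa*). The ATAC-seq summits lay 330 bp (WT refed 1) and 404 bp (JMJD1C-LKO refed 1) upstream of *H2-DMa*, which is 105 and 179 bp inside an untranslated exon of a *Brd2* transcript. Their scores of 8.89 and 9.97, the −log10 of the q-value, ranked 1087 of 5027 and 447 of 1450 summits of their samples. The H3K9me2 summits lay 304 bp (WT fasted 1) and 174 bp (WT refed 2) downstream of the start, in an intron of *H2-DMa*, with scores of 1.95 and 6.21 that ranked 7674 of 7690 and 8781 of 9929. Much stronger summits lay over *Brd2*, 2077 bp upstream of the *H2-DMa* start in both WT fasted samples, where they ranked 21 of 7690 and 42 of 13456. A strong summit also lay over *Brd2* in WT refed 2, somewhat further upstream, with a score of 45.8 that ranked 156 of 9929. The summits at *H2-DMa* can therefore be assigned to either gene. The CpG-rich window printed for *H2-DMa* above belongs to the same stretch, and the expression of *Brd2* did not pass the test while that of *H2-DMa* was 3.62-fold higher by group means.

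**Figure D5:**
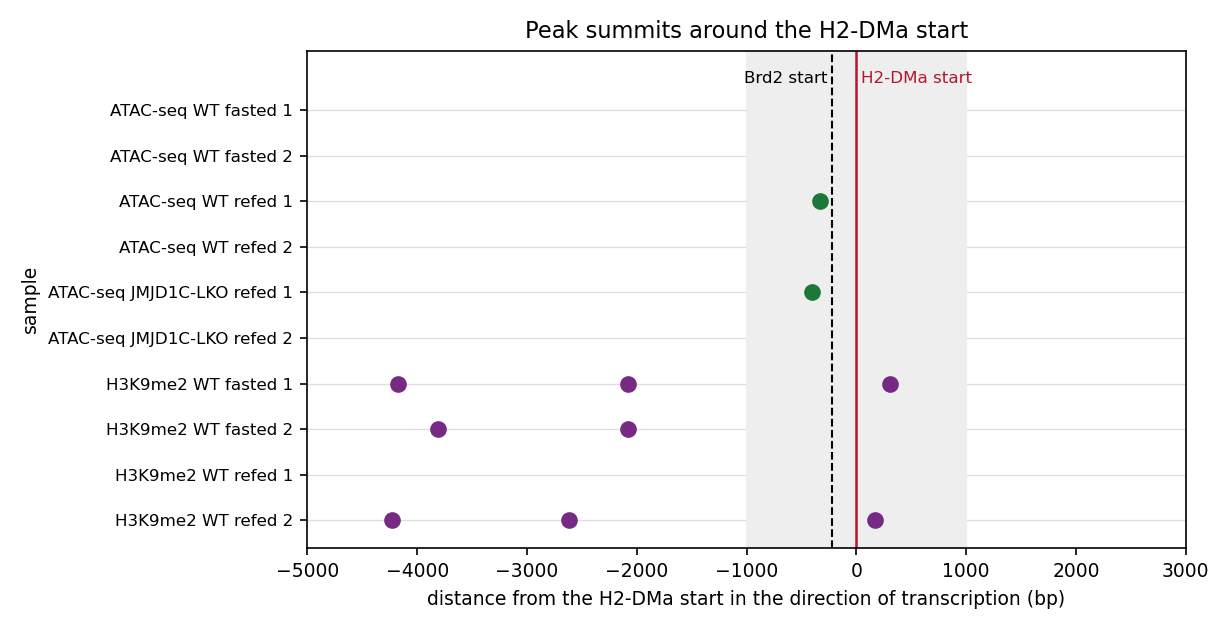
Peak summits around the *H2-DMa* start in each of the 6 ATAC-seq (green) and 4 H3K9me2 (purple) samples, by distance from that start in bp, with the 1000 bp window shaded and the *Brd2* start dashed. Of the ATAC-seq samples 2 have a summit, both on the *Brd2* side, and of the H3K9me2 samples 2 have one inside *H2-DMa*.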

How the data were processed

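Livers of 18 samples were measured by RNA-seq, ATAC-seq, H3K9me2 ChIP-seq and input, and input samples were used here only through the authors' peak calls. Estimated counts of RefSeq transcripts, without scaling, were deposited by the authors, as were summits of MACS2 2.1.1 peaks called in each sample, scored as the −log10 of the q-value. The submitters' processing notes list mm10, BWA, HISAT2, cutadapt 1.2.1, Partek and DESeq2. A deposited table of the authors' own comparison (p-values, FDR and fold changes) was not used.

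Counts were summed per gene and rounded, since about 66% of them were fractional, and genes were kept with filterByExpr (14151 of 15572). The test was edgeR 4.0.16 (R 4.3.3), quasi-likelihood with TMM scaling and Benjamini-Hochberg adjustment, called at an adjusted p below 0.05. Labels do not name separate animals for the RNA pools, so p-values measure the spread between these libraries. The script was tested on simulated data. CPM and fold changes came from the same fit, per-kilobase levels from RefSeq exon lengths (GRCm38.p6), and centred log2 CPM used a prior count of 2. Depth was 51265128 to 54400509 counts, so genes near 1 CPM, such as *Ciita*, rest on few counts and are imprecise.

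Summits were assigned to NM and NR starts of 26180 genes within 1000 bp. Motifs were searched in 32851 RefSeq windows. The genes of the set and the lists were chosen with earlier results of these data known. Named genes are all 8 of the set, at most 5 called genes of each list by smallest p, the 3 most abundant markers of a list (of which those of use are given), the 5 nearest by profile, and *Jmjd1c*. Other genes of the lists and of the class II region were named after their values were seen. Some genes that the rule would name are not reported here. Alternatives were RLE factors, DESeq2 1.42.0, no filter, 1 transcript per gene, each library left out, a replicate block, and for summits other windows, a score of at least 5 and the whole gene.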

Additional observations from a re-analysis of the deposited data

How the results depend on the processing

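The fold changes of the 8 class II genes moved by less than 1 standard error under all 5 alternatives that kept every library (40 of 40 values), where their median lay between 2.529 and 2.568. None of the 72 values, including those with a library left out, changed sign, and all 8 genes stayed called except *Ciita* without WT library 1. With each library left out in turn the median log2 fold change lay between 2.197 and 2.847, and the number of the 8 genes called between 7 and 8. The number of genes called higher lay between 660 and 2590 and lower between 408 and 2590, and those of the other class II pathway lists between 9 and 25 and between 3 and 8, the lowest without a WT library, where the lone WT library is assumed to vary like the others. With only the most abundant transcript of each gene 1263 genes were higher and 1063 lower. Of 252 counts of calls in single lists 42 moved by over 1.5 times, 34 of them with a library left out. The cause was not tested.

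Replicate numbers are shared by the groups but nothing pairs the libraries, and the deviations of same-numbered libraries had a correlation of −0.0046. With the replicate number as a block 2211 genes were higher and 1996 lower, the class II median was 2.529, all 8 genes stayed called, and 23 and 8 genes of the other class II pathway lists were higher and lower.

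An ATAC-seq summit anywhere in the gene or up to 1000 bp upstream added *H2-DMa* in WT fasted 1, which made 1 gene. A score of at least 5 left 0 genes with an H3K9me2 summit in the fasted group. With 1 replicate left out the number of genes with a summit lay between 0 and 1 in the ATAC-seq WT refed and JMJD1C-LKO refed groups and in both H3K9me2 groups, and was 0 in the ATAC-seq WT fasted group.

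With 2 libraries or samples in each group and pooled RNA the spread between mice is unknown. Summit lists hold no reads, so depth could not be weighed.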
